A study of Arabidopsis thaliana with 12 samples.

Results

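The 33 genes described here gave bright array signals in wild-type Arabidopsis thaliana and differed little, on average, between the wild type and the chloroplast protein import mutant ppi1. They were chosen from the measured values. Each is the only gene assigned to its array feature (the spot that reports it), had a mean normalised intensity of at least 1.5 over the 6 wild-type arrays, and had a mean log2 difference between ppi1 and wild type (ppi1 minus WT) of less than 0.25 in size, which is a fold of less than 1.19. Of 3439 deposited features, 3365 were tested, 676 of those had 1 gene, and 58 of the 676 were bright enough once 4 genes had been left out by name. The remaining 25 of the 58 lay at or beyond the limit. Because the ppi1 minus WT difference chose the genes, it is given below as a description, with no test.

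Total RNA was hybridised to 12 arrays, of which 6 carried wild-type (WT) and 6 carried ppi1 RNA, and the labels give the ecotype Columbia 0 for both groups. Replicates are numbered 1 to 6 in each group, with no word on whether they came from separate plants, so any p-value reflects the spread of these arrays alone and that spread may be technical. The labels name no tissue, plant age, growth condition or array type. Of 5 green-leaf markers, 1 had a feature of its own. This was LHB1B2, with a bright mean normalised intensity of 15.5 in WT and 7.50 in ppi1. Of 4 root, 2 senescence, 2 seed and 2 flower markers 0 had one. With 1 green-leaf marker alone the tissue could not be settled, and the other organs could not be checked.

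Most chloroplast proteins are encoded in the nucleus, made in the cytosol as precursors and imported through the TOC and TIC complexes of the chloroplast envelope. The ppi1 mutation is known to affect TOC33, a precursor receptor of the outer envelope, and the related receptor TOC34 is still encoded in its genome. Its plants are known to be pale, and photosynthesis transcripts are the class best known to fall when import is impaired. Genes that stay level serve as the reference for such changes on an array, where values are relative to one another. In whole-tissue RNA, fewer cells of a type and less RNA per cell cannot be told apart.

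Summed deposited intensities were 3380 to 3582 on the WT arrays and 3598 to 3689 on the ppi1 arrays, and array medians ran from 0.475 to 0.645. In either group, neighbouring replicate numbers (1 with 2, 3 with 4, 5 with 6) gave similar arrays. Over the 33 genes the median difference between such arrays was 0.0703 on the log2 scale, against 0.0996 over all features. All features include many dimmer ones, and no value for features as bright is given, so nothing is read from that contrast. The 3 sets are not named in the labels, so each result below is also given within sets where it turns on them.

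A small mean difference was common on these arrays. It was under 0.25 in size for 73.6% of all features, for 56.8% of the 366 features that were as bright, and for 56.9% of the 58 bright named features. The 33 differences ran from -0.23 to 0.21, with 18 above 0 and 15 below. Their median was 0.0064, against 0.0050 over all features. No member array lay at the floor set for dim signals. In WT brightness the genes spanned the 89.2 to the 99.7 percentile of all features, 5 with a mean above 5, 10 between 2 and 5, and 18 below 2. Intensities of different features are not amounts of transcript, so these ranks order signals only.

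**Figure D1:**
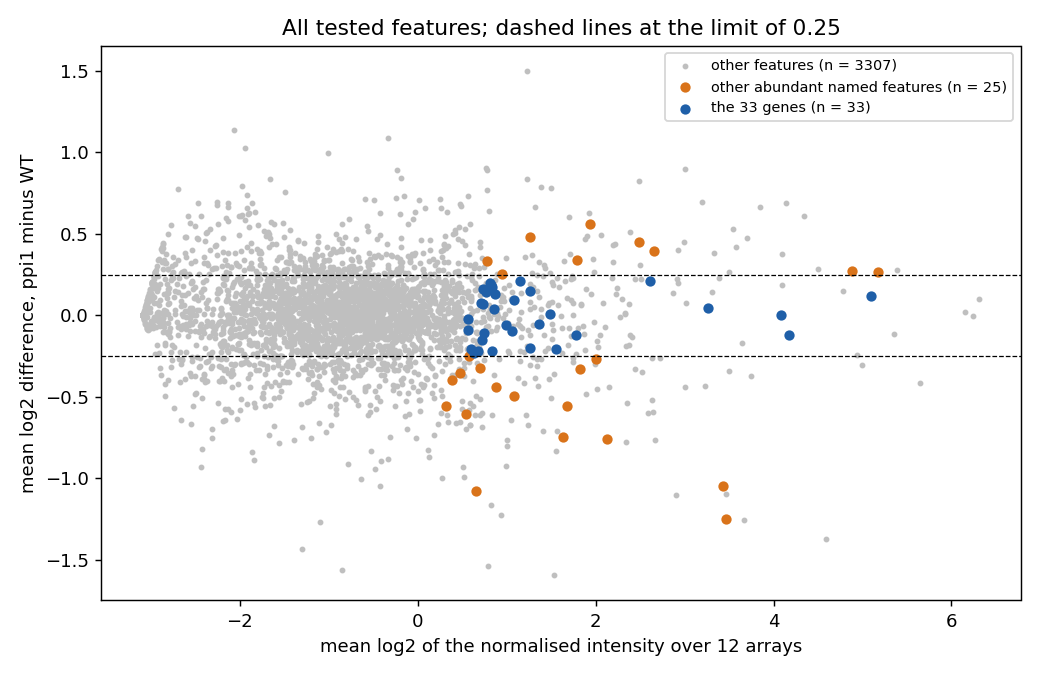
Mean log2 difference of ppi1 minus WT (vertical axis) against the mean log2 normalised intensity over 12 arrays (horizontal axis) for all 3365 tested features. The 33 genes (blue) lie between the dashed lines at 0.25 by construction, and the other 25 bright named features (orange) lie at or beyond them.

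These genes include 3 that act at or beside the thylakoid electron transport chain. NdhS, a subunit of the chloroplast NADH dehydrogenase-like complex, which passes electrons around photosystem I, ranged from 7.87 through a median of 9.43 to 10.8 over the WT arrays. In ppi1 it ranged from 7.87 through 10.1 to 11.02. On this scale the groups covered nearly the same span, and the mean difference was 0.044 (SE 0.102). Its sign depended on the scaling. It was -0.067 with cyclic loess, -0.19 on the deposited scale and -0.46 with each array divided by its median. Within sets NdhS was lower in ppi1 in replicates 1 and 2 (-0.36) and higher in replicates 5 and 6 (0.37).

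PSB27, a lumenal protein known for the assembly and repair of photosystem II, ranged from 1.95 through 4.32 to 5.07 in WT and from 1.5 through 4.71 to 5.03 in ppi1. The low values were replicates 5 and 6 of each group, at 1.95 and 2.29 in WT and 1.5 and 1.53 in ppi1, whereas all other arrays lay at 4.10 or above. The highest set mean was 2.35-fold the lowest in WT and 3.27-fold in ppi1, both between replicates 1 and 2 and replicates 5 and 6. The mean ppi1 minus WT difference of -0.12 (SE 0.411, 95% interval -1.03 to 0.78) was therefore small beside the gene's own spread, which was the widest of the 33. With the replicate number as a block, which takes out the drop shared by replicates 5 and 6, the SE was 0.111 and the interval -0.39 to 0.15. AT5G58330, the NADP-dependent malate dehydrogenase of the chloroplast, which exports reducing power as malate, ranged from 1.60 through 2.02 to 2.23 in WT and from 1.38 through 1.63 to 2.25 in ppi1. Of its ppi1 arrays 3 lay below every WT array, 5 of 6 replicate numbers had the lower value in ppi1, and its difference of -0.22 (SE 0.132) was one of the 3 closest to the lower limit.

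Another 5 genes belong to families that act on RNA or DNA, most of these families in organelles. Pentatricopeptide repeat proteins bind organelle transcripts and are needed for their processing, editing or translation. AT3G26630, a member of that family, ranged from 2.77 through 3.07 to 3.68 in WT and from 1.85 through 2.79 to 3.74 in ppi1. Its low ppi1 values were replicates 1 and 2, at 2.22 and 1.85, and the other ppi1 arrays fell within or close to the WT span. A second tested feature, assigned to AT3G26630 together with AT2G42920, stood at 1.81 in WT and 1.83 in ppi1, a log2 difference of 0.011.

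AT5G39980, a chloroplast pentatricopeptide repeat protein, showed a similar array pattern. It ranged from 2.09 through 2.74 to 2.88 in WT and from 1.76 through 2.75 to 3.44 in ppi1. Replicates 1 and 2 of ppi1 were its lowest arrays, and replicates 5 and 6 of ppi1 its highest. AT2G30100, also of that family, had the narrowest spread of the 33. It ranged from 1.60 through 1.67 to 1.72 in WT and from 1.71 through 1.87 to 2.08 in ppi1. The groups overlapped by the lowest ppi1 array alone, ppi1 was higher in 6 of 6 replicate numbers, and the difference was 0.18 (SE 0.0451, 95% interval 0.085 to 0.28).

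AT3G18870, of the mTERF family of organelle transcription factors, ranged from 1.83 through 1.94 to 2.32 in WT and from 1.78 through 1.95 to 2.14 in ppi1. Its medians nearly coincided, and its difference was -0.061 (SE 0.0682). AT2G37510, an RNA-binding protein with an RRM domain, ranged from 1.82 through 1.97 to 2.39 in WT and from 1.51 through 2.68 to 3.23 in ppi1. Its ppi1 arrays lay on both sides of the WT arrays: replicates 1 and 2 were below all of them, and replicates 3 to 6 above all of them. The mean difference of 0.21 (SE 0.199) joins these opposite parts.

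Among 5 metabolic and metal-binding proteins, CUTA, a small copper-binding protein of the chloroplast, was the brightest. It ranged from 4.97 through 5.66 to 6.67 in WT and from 5.62 through 6.08 to 9.28 in ppi1. All ppi1 arrays lay above the 2 lowest WT arrays, and the difference of 0.21 (SE 0.129) was the one nearest the upper limit. AT4G29890, of the choline monooxygenase family, ranged from 1.56 through 1.67 to 1.86 in WT and from 1.21 through 1.44 to 1.72 in ppi1, a difference of -0.23 (SE 0.0769) and the nearest to the lower limit. Of the amino acid enzymes, AT-HF, which catalyses a middle step of histidine synthesis in the plastid, was at 1.75 ± 0.246 (SD, n = 6) in WT and 1.62 ± 0.172 in ppi1. AT5G10920, the argininosuccinate lyase that completes arginine synthesis, was at 1.74 ± 0.153 and 1.59 ± 0.282. AT1G01500, of the erythronate-4-phosphate dehydrogenase family, was at 2.32 ± 0.491 and 2.52 ± 0.143, and was one of 4 genes with a wider log2 spread in WT than in ppi1. AT-HF had the lower value in ppi1 for all 6 replicate numbers, by 0.11 on average (log2), which shows how small a same-signed difference could be here.

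**Figure D2:**
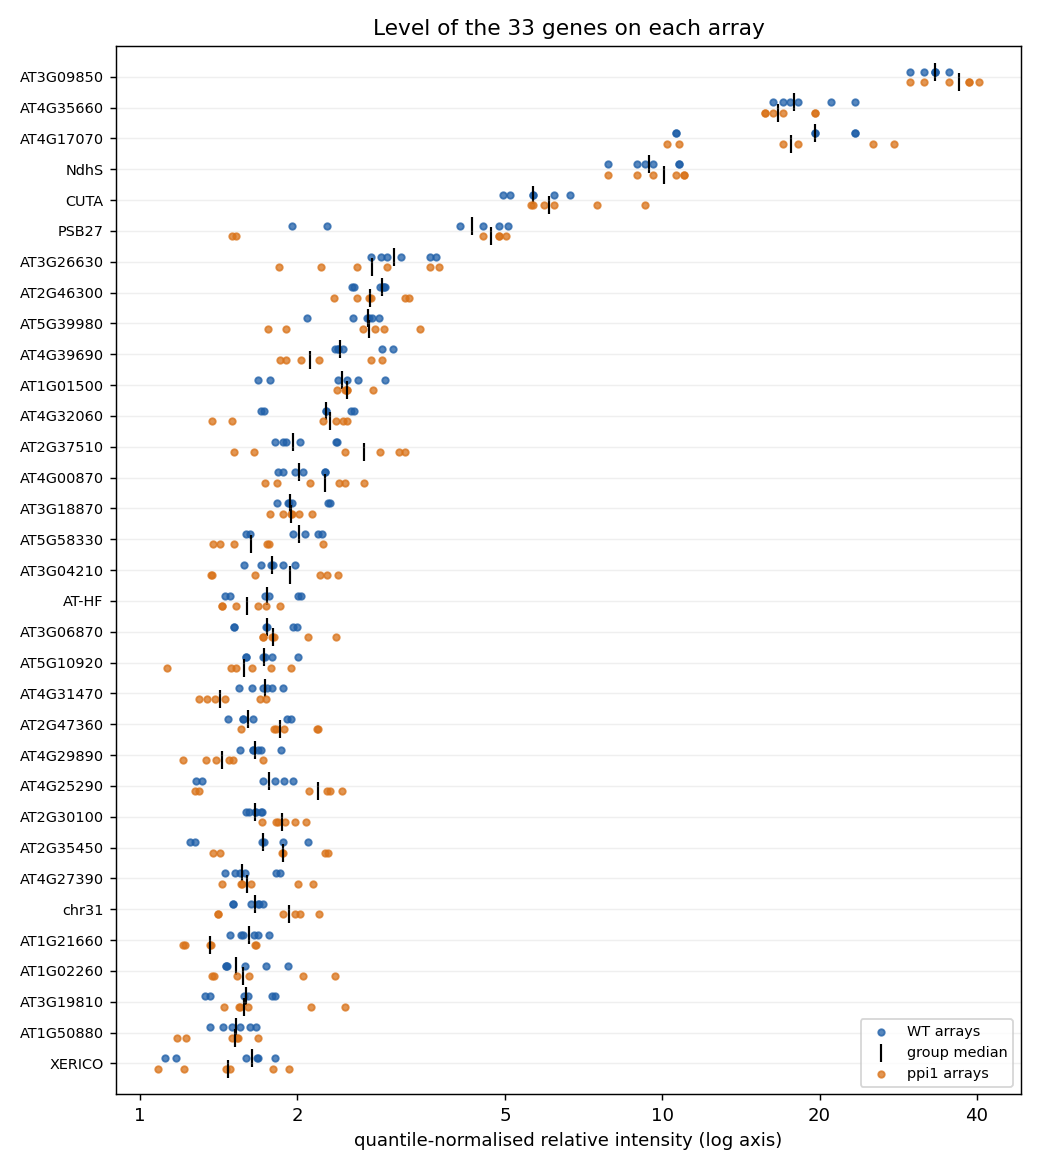
Quantile-normalised relative intensity (log axis) of each of the 33 genes on the 6 WT (blue) and 6 ppi1 (orange) arrays, with black ticks at group medians. For every gene the orange and blue points overlap, and PSB27 and AT4G17070 show the widest spread within a group.

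Of 2 proteins of the mitochondrial membranes, AT4G39690, the MIC60 subunit of the complex that shapes the inner membrane's cristae, ranged from 2.37 through 2.42 to 3.05 in WT and from 1.86 through 2.12 to 2.91 in ppi1. Its high arrays were replicates 1 and 2 in WT but replicates 3 and 4 in ppi1, and its mean difference was -0.20 (SE 0.127). AT4G32060, the MICU regulator of calcium uptake, ranged from 1.71 through 2.28 to 2.57 in WT and from 1.38 through 2.31 to 2.50 in ppi1. The WT low came in replicates 3 and 4 and the ppi1 low in replicates 5 and 6, so the medians matched while the set differences were 0.52 and -0.74. Its mean difference was -0.094 (SE 0.182).

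A further 6 genes act in gene regulation, RNA or protein handling. AT3G09850, a protein with a G-patch domain, a motif of RNA-processing factors, was the brightest of the 33 and ranged from 29.8 through 33.3 to 35.4 in WT and from 29.8 through 37.0 to 40.4 in ppi1. Its WT set means were within 1.02-fold of each other, against 1.29-fold in ppi1. AT4G17070, of the peptidyl-prolyl isomerase family of protein folding enzymes, had the smallest mean difference of all, 0.0028 (SE 0.315), yet a wide spread. It ranged from 10.6 through 19.6 to 23.4 in WT and from 10.2 through 17.6 to 27.8 in ppi1. Replicates 5 and 6 were the low arrays in both groups, the high set was replicates 1 and 2 in WT and replicates 3 and 4 in ppi1, and the 95% interval of the difference ran from -0.69 to 0.70 (-0.35 to 0.36 with the replicate block).

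XERICO, a RING-type protein known to raise abscisic acid levels, had the third smallest mean difference, -0.020 (SE 0.171). It ranged from 1.12 through 1.64 to 1.81 in WT and from 1.08 through 1.48 to 1.93 in ppi1. Within sets its differences were -0.19, 0.70 and -0.57, so the mean near 0 came from values of opposite sign. The bHLH transcription factor AT4G00870 was at 2.05 ± 0.184 in WT and 2.21 ± 0.376 in ppi1. For chr31, a chromatin remodeller also called CLASSY3 that acts in RNA-directed DNA methylation, the levels were 1.63 ± 0.0958 and 1.82 ± 0.332. AT1G21660, a protein with a DnaJ domain, was at 1.62 ± 0.0993 and 1.42 ± 0.204, a difference of -0.21 (95% interval -0.40 to -0.014).

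Membrane, secreted, defence or DNA repair families account for 5 genes. AT2G46300, of a late embryogenesis abundant glycoprotein family, had the second smallest mean difference, 0.0064 (SE 0.0828). It ranged from 2.55 through 2.91 to 2.94 in WT and from 2.36 through 2.76 to 3.28 in ppi1, the ppi1 arrays reaching past WT on both sides. AT4G25290, of the DNA photolyase family, ranged from 1.28 through 1.77 to 1.96 in WT and from 1.28 through 2.20 to 2.43 in ppi1. Its low arrays were replicates 3 and 4 in WT and replicates 1 and 2 in ppi1. AT4G31470, of the CAP family of secreted pathogenesis-related proteins, ranged from 1.55 through 1.74 to 1.88 in WT and from 1.30 through 1.42 to 1.75 in ppi1. Its ppi1 array was the lower one for all 6 replicate numbers, by 0.22 on average (log2). The TIR-NBS disease resistance family member AT3G04210 was at 1.79 ± 0.139 and 1.88 ± 0.468. AT1G02260, annotated in the divalent ion symporter family, is separated from TOC33 by 2 genes in the TAIR10.1 gene table, and stood at 1.61 ± 0.189 in WT and 1.72 ± 0.400 in ppi1.

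For 7 genes no role is given here. The brightest of them, AT4G35660, ranged from 16.3 through 17.9 to 23.4 in WT and from 15.8 through 16.7 to 19.6 in ppi1. Replicates 5 and 6 were its high arrays in both groups, and ppi1 was lower in 6 of 6 replicate numbers by 0.12 on average (log2). The other 6 (AT3G06870, AT2G47360, AT2G35450, AT4G27390, AT3G19810 and AT1G50880) had WT means of 1.53 to 1.75 and differences from -0.088 for AT1G50880 to 0.17 for AT2G47360.

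The edge of the choice was not marked by a gap. Just inside it lay CUTA (0.21), AT2G37510 (0.21) and AT4G25290 (0.20) on the higher side and AT4G29890 (-0.23), AT5G58330 (-0.22) and AT4G31470 (-0.22) on the lower. Just outside it on the higher side, AT2G33180 (0.26) ranged from 1.34 through 1.88 to 1.99 in WT and from 1.70 through 2.12 to 2.45 in ppi1. AT2G27290 (0.27) ranged from 27.8 through 34.3 to 38.6 and from 35.4 through 39.5 to 44.2. The photosystem II subunit PSBW (0.27) ranged from 23.4 through 26.5 to 29.8 and from 27.8 through 33.3 to 35.4. The groups of all 3 overlapped, as those of the genes inside did. On the lower side, AT2G46050 (-0.25) ranged from 1.32 through 1.49 to 2.19 in WT and from 1.07 through 1.39 to 1.64 in ppi1. AT4G18180 (-0.27) ranged from 3.97 through 4.38 to 4.88 and from 2.22 through 4.19 to 5.14. AT3G47650 (-0.32) ranged from 1.53 through 1.87 to 2.16 and from 1.28 through 1.40 to 1.89. These groups overlapped too. Standard errors of these 12 differences were 0.0769 to 0.218, which exceeds the steps between neighbours.

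A mean near 0 does not by itself show that a transcript was unchanged in ppi1. The 95% interval of the difference lay wholly within 0.25 of 0 for 2 of the 33 genes, AT2G46300 and AT3G18870 (16.0% of all features had such an interval). For 7 genes it reached past 0.5 in size, a fold of 1.41 (41.0% of all features): AT4G17070, PSB27, AT3G26630, AT2G37510, AT5G58330, AT4G25290 and AT2G35450. With the replicate number as a block, since same-numbered arrays deviated together, the interval lay within the limit for 7 genes (28.0% of all features): AT4G35660, AT2G46300, AT4G00870, AT-HF, AT3G06870, AT4G27390 and AT1G02260. Of these 7, the interval left out 0 for AT4G35660 (-0.195 to -0.044), AT-HF (-0.194 to -0.026) and AT3G06870 (0.020 to 0.246). For AT2G46300, AT4G00870, AT4G27390 and AT1G02260 it spanned 0. The interval with the block reached past 0.5 for 6 genes (30.5% of all features). With adjacent replicates averaged, which leaves 3 values per group, 0 intervals lay within the limit and 23 reached past 0.5. The shares of all features are not given for that setting, so nothing about these genes is read from its counts. These intervals come from limma, and since the genes were chosen for a small mean they describe spread and are no test. A single gene, AT2G30100, was past the limma threshold of adjusted p under 0.05 (8.44% of all features were, 3.15% higher and 5.29% lower in ppi1). Its call was lost with the replicate block, which called AT4G31470 instead, with adjacent replicates averaged or as a random block, and with cyclic loess. Median scaling called 13 members, all lower, and 416 of all 3365 features, 80 higher and 336 lower. The 366 features as bright had a median difference of -0.34 under that scaling, so the 13 calls are not read as particular to the members. In the fit used here 4 genes had the same sign in 6 of 6 replicate numbers (22.4% of all features). Groups of 0 members failed to overlap (6.09% of all features). Nothing is read from these counts because the same contrast chose the genes.

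**Figure D3:**
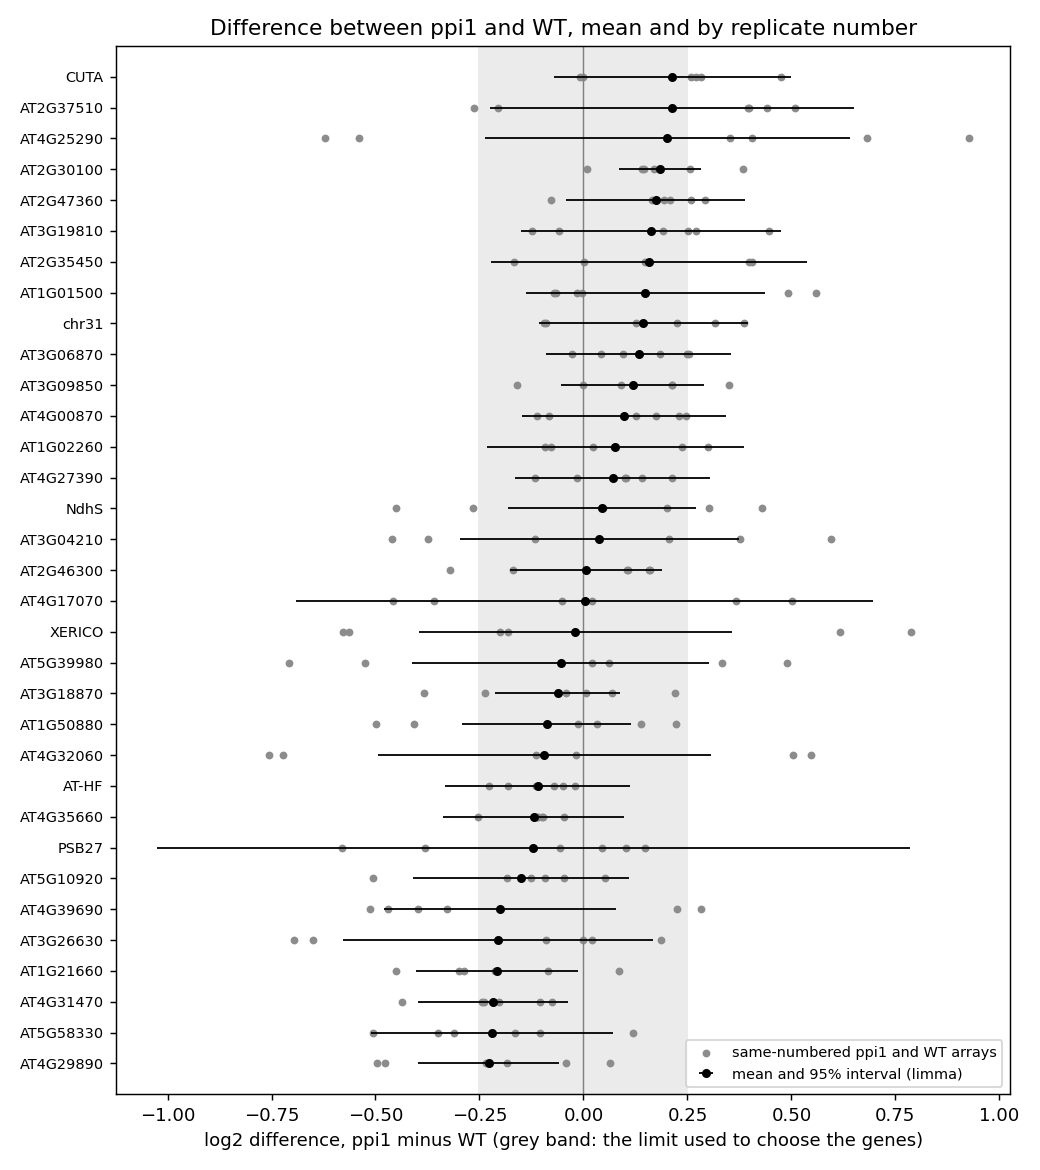
Mean log2 difference of ppi1 minus WT for each gene (black, with the 95% interval from limma) and the differences of the 6 same-numbered arrays (grey), with the band of 0.25 used to choose the genes. All means lie in the band, while the interval of the fit without a replicate block leaves it for all genes but AT2G46300 and AT3G18870.

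The genes also varied between the sets of adjacent replicates. The median range of the 3 set means was 0.32 on the log2 scale in WT and 0.47 in ppi1 (0.31 and 0.39 over all features). The log2 SD was larger in ppi1 than in WT for 29 genes, or 87.9%, against 65.4% of all features and 68.3% of the features as bright. The exceptions were AT4G35660, AT1G01500, AT3G18870 and AT-HF. The medians of the SD were 0.16 in WT and 0.26 in ppi1. This excess was not tested, and the 33 genes share the same arrays.

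Whether the ppi1 minus WT difference itself varied between sets does not depend on the mean that chose the genes, so it was tested for every feature as the interaction of genotype and set in limma. The difference varied between sets for 17 of the 33 genes (51.5%), against 18.0% of all features and 51.6% of the 366 bright features. The share was close to that of all features as bright, so it is not particular to these genes. Since the sets were recognised from the data and 2 adjacent arrays may come from 1 RNA, these p-values measure spread between adjacent arrays only.

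AT4G25290 had the largest range. It was lower in ppi1 in replicates 1 and 2 (-0.58) and higher in replicates 3 and 4 (0.80) and 5 and 6 (0.38; adjusted p = 0.000563). XERICO (adjusted p = 0.00122), AT4G32060 (adjusted p = 0.00145) and AT4G39690 (adjusted p = 0.00123) were higher in ppi1 in replicates 3 and 4 and lower in the other sets. AT5G39980 (-0.62, 0.040 and 0.41; adjusted p = 0.0225), AT3G04210 (-0.42, 0.045 and 0.49; adjusted p = 0.0457) and NdhS (-0.36, 0.12 and 0.37; adjusted p = 0.022) ran from lower in replicates 1 and 2 to higher in replicates 5 and 6.

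In replicates 1 and 2, 27 of the 33 genes (81.8%) were lower in ppi1, against 46.5% of all features and 57.4% of the bright ones. The median difference of the 33 was -0.091 there, 0.12 in replicates 3 and 4 and 0.11 in replicates 5 and 6. That of all features was 0 in each set. For each gene the set differences average to the mean that chose it, so the choice ties the sets to one another. The 33 genes also share the same arrays, and the excess in replicates 1 and 2 was not tested. The difference was within 0.25 of 0 in every set for 6 genes: AT4G35660, AT2G46300, AT4G00870, AT-HF, AT3G06870 and AT4G27390. Of these, AT2G46300 passed the interaction test (adjusted p = 0.00994) with differences of -0.245, 0.16 and 0.11. AT3G18870, whose interval without a block also lay within the limit, left it in replicates 3 and 4. Its differences were -0.018, -0.31 and 0.14, and it passed the interaction test too (adjusted p = 0.0156).

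**Figure D4:**
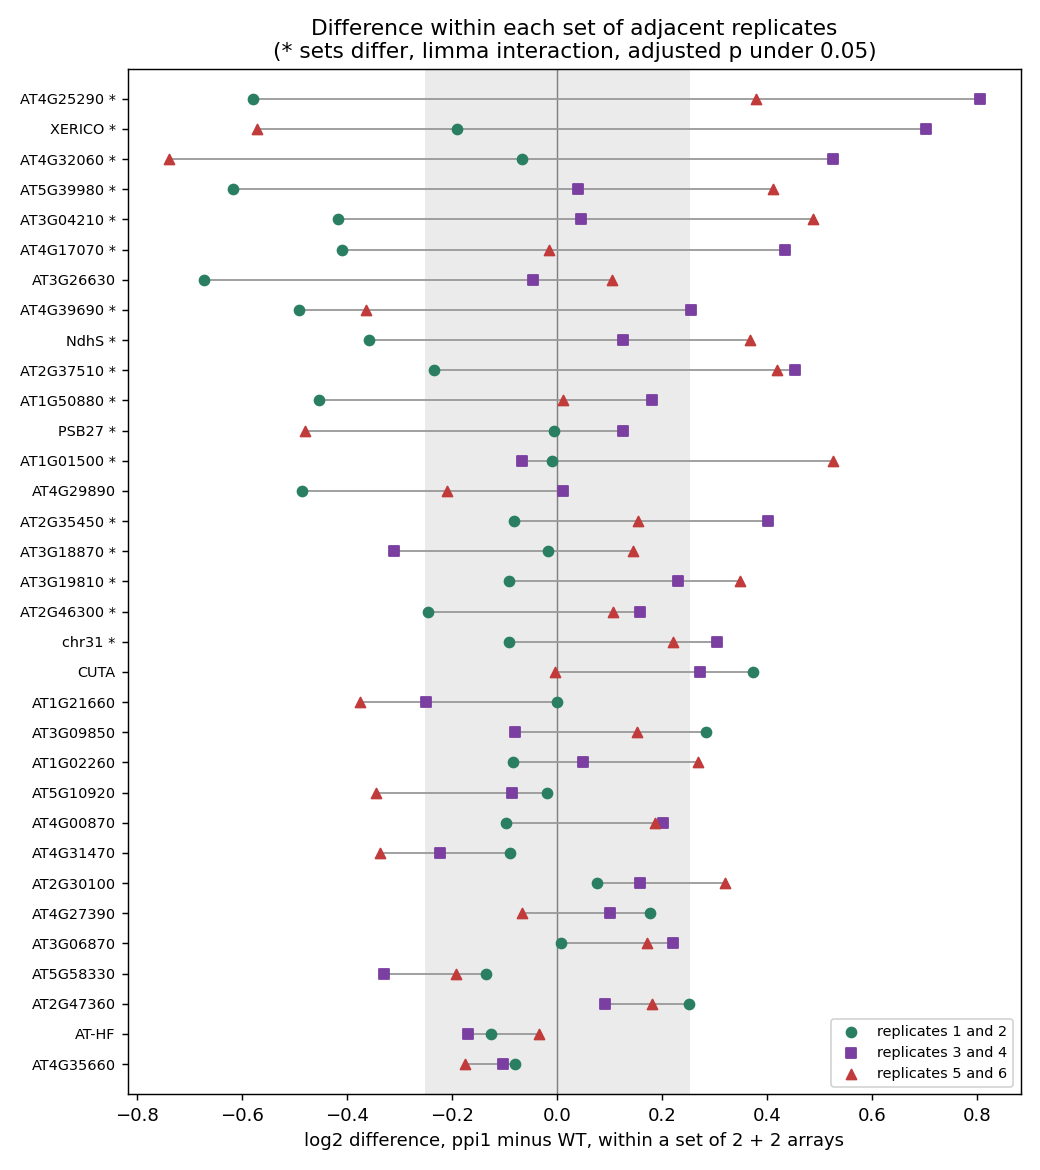
Log2 difference of ppi1 minus WT within replicates 1 and 2 (circles), 3 and 4 (squares) and 5 and 6 (triangles), each from 2 arrays per group, with genes ordered by the range of the 3 values. Stars mark the 17 genes whose sets differed in limma at an adjusted p under 0.05, and 6 genes keep all 3 values inside the band of 0.25.

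The number of genes within the limit was 32 on the deposited scale, 33 with cyclic loess and 15 with each array divided by its median. On the deposited scale the median difference of all features was 0.21, and that of the 33 genes was -0.057, or -0.26 relative to all features. Features as bright had a median of -0.067 on that scale, so the lower value was shared with them and is not particular to the 33. Median scaling moved every gene by the same -0.27 from its value on the deposited scale. That put all 33 differences below 0, from -0.54 for AT4G35660 to -0.056 for AT2G30100, with a median of -0.33 against -0.025 over all features and -0.34 over the 366 bright features, which include the 33. Under the other 3 scalings 14 genes were above 0 each time, among them CUTA, AT2G37510, AT2G47360 and AT2G30100, and 14 were below 0 each time, among them PSB27, AT5G58330, AT4G39690 and AT4G32060.

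**Figure D5:**
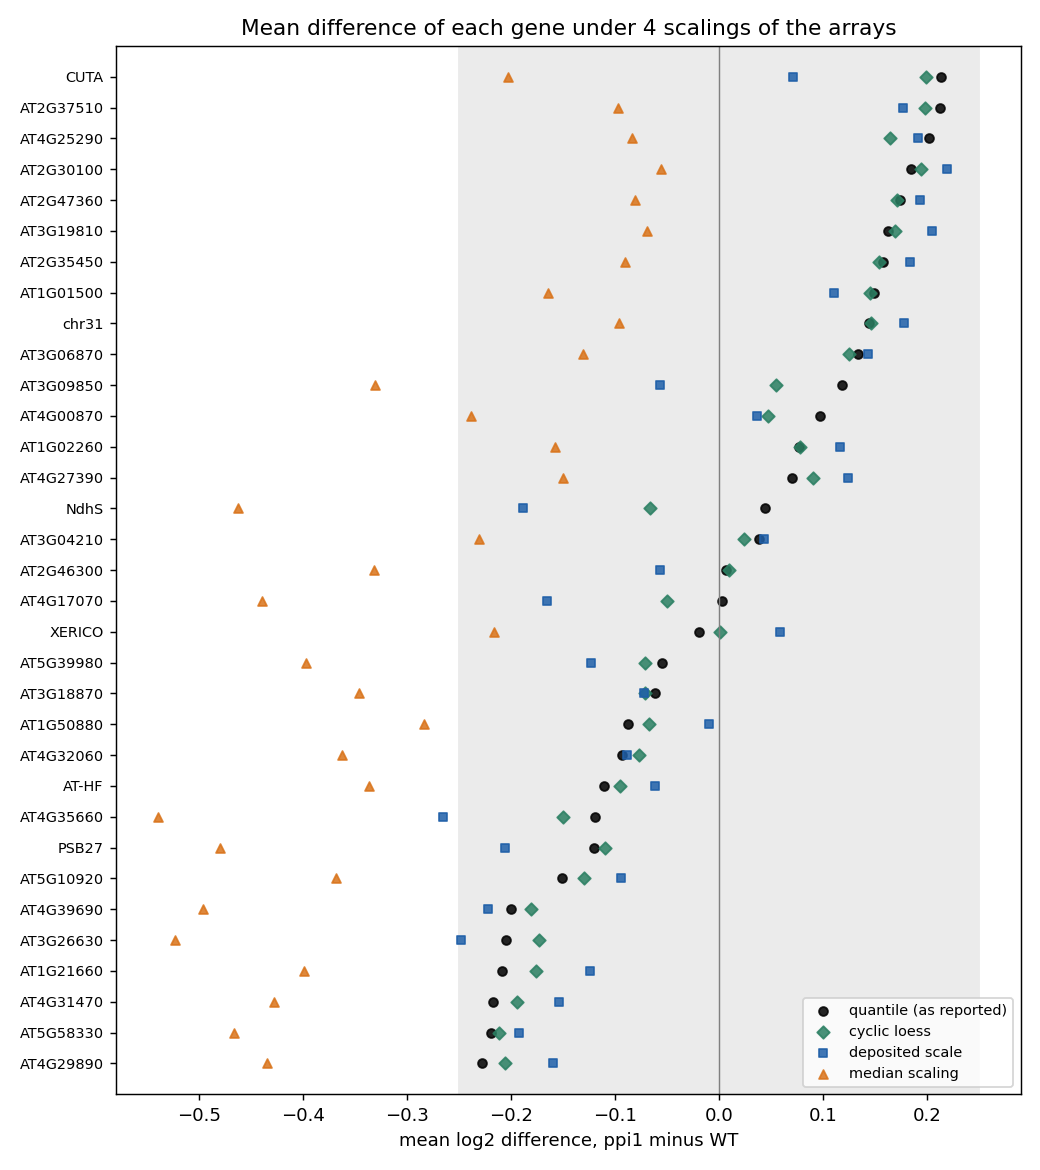
Mean log2 difference of ppi1 minus WT of each gene with quantile normalisation (black), cyclic loess (diamonds), the deposited scale (squares) and median scaling (triangles). Median scaling moves all 33 genes below 0, and 18 of them below the band of 0.25.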

How the data were processed

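The values are deposited as linear hybridisation intensities, 1 for each feature on each array. No source used here says how the authors corrected or scaled each intensity. Features at 0 on all arrays (74) were dropped. The rest were quantile-normalised between arrays, floored at 0.118 (the 5th percentile of positive values) and log2-transformed. The mutant was set against WT with lmFit and eBayes of limma 3.58.1, run in R 4.3.3 on 12 arrays, with no covariate and Benjamini-Hochberg adjustment over 3365 features. The fit was tested on simulated data. The interaction of genotype and replicate set used the same values and was added after the data were seen.

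Features were named from the platform annotation of the series (692 with 1 gene, 870 with several, 1877 with none), with symbols from the TAIR10.1 gene table. Whether each annotation is right was not tested, and a feature can pick up related genes. No sequence of these features was used here.

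The genes, lists, sets and tests were chosen with earlier results of these data known. Of 18 common reference genes, 1 (AT2G28390) had its own feature, at 0.581 in WT and 0.706 in ppi1; of 12 import genes 0 had one. Full values are given for the 10 brightest members, the 3 with the smallest difference, the 3 with the lowest and the 3 with the highest spread, and the 3 on each side of each limit. The roles are background knowledge. Same-numbered arrays deviated together (correlations of 0.379 to 0.590), which was read as pairing by number; this comes from the data, not the labels. Alternatives were other scalings, an offset, a filter on dim features, a replicate block, averaged or blocked adjacent replicates and leaving out each array. The number of arrays limits the precision.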

Additional observations from a re-analysis of the deposited data

Results flagged for a closer look

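Among 78 groups of 6 values examined by Dixon's test (the 33 genes and the 6 features just outside the limit), 1 array stood far from the other 5 in 2 groups, where chance flags about 1 group in 20. AT1G01500 was at 2.80 in ppi1 replicate 3, against 2.39 to 2.50 on the other ppi1 arrays. AT3G47650, just outside the limit, was at 1.89 in ppi1 replicate 3, against 1.28 to 1.46 on the others.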

How the results depend on the processing

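Against 284 features past the threshold (106 higher, 178 lower), the deposited scale gave 909 (805 and 104), the replicate block 517 (250 and 267), averaging adjacent replicates 4 (0 and 4) and a random block on them 99 (28 and 71); the averaged setting has fewer values per group, and for the others the cause was not tested. Median scaling gave 416, with 80 higher and 336 lower. The 12 fits without 1 array gave 223 to 276. Of the 33 genes, 15 stayed within 0.25 with median scaling, where their median was -0.33, and 32 did on the deposited scale. All 33 did with cyclic loess and with an offset. They also did with the filter on dim features, the replicate block and the averaged or random-block settings. Those settings leave the mean difference of each of the 33 as it is, so the outcome was fixed in advance. Leaving out each array kept 29 to 33 within the limit, with a median of -0.034 to 0.049, and 23 genes stayed inside in all 12 such fits. The sign turned in at least 1 of them for 9 genes: AT4G17070, NdhS, PSB27, AT2G46300, AT5G39980, AT4G32060, AT3G04210, AT1G02260 and XERICO. The widest change was that of PSB27, from -0.29 without WT replicate 5 to 0.11 without ppi1 replicate 5. Choosing anew gave 27 to 36 genes under the other scalings, the offset and the filter. The call of AT2G30100 held on the deposited scale, which also called AT4G35660 lower, but was lost with median scaling, cyclic loess, the offset, the filter, the replicate block, both settings for adjacent replicates, and without WT replicates 1, 3, 5 or 6 or ppi1 replicates 4 or 5. The replicate block called AT4G31470 alone, and without ppi1 replicate 3 AT4G29890 was called lower as well. Median scaling called 13 members, all lower: AT-HF, AT1G21660, AT1G50880, AT2G46300, AT3G18870, AT3G26630, AT4G29890, AT4G31470, AT4G35660, AT4G39690, AT5G10920, AT5G58330 and NdhS. Intervals with the replicate block were added after the data were seen. The sets differed for 13 to 22 of the 33 genes under the other scalings. The shares of all features and of the bright ones are not given for those scalings, so nothing is read from this count.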
